A study of Saccharomyces cerevisiae with 12 samples.

Results

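The 10 genes COQ1 to COQ10 of Saccharomyces cerevisiae, which make ubiquinone (coenzyme Q) or help it to be made and used, were followed in a pair of wine strains that fermented with or without added lipids. Members were the probe sets whose single gene symbol is a listed COQ gene. This gave 12 of 9335 probe sets and all 10 genes, out of 5656 genes with a probe set of 1 symbol. COQ9 had 3 probe sets and every other gene had 1. COQ7 stands in the probe annotation under its other name, CAT5, and was matched through its locus, YOR125C.

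The samples were 12 one-colour Affymetrix yeast arrays, 1 per culture, in 4 groups of 3 biological replicates. The groups were EC1118, a commercial wine strain, in FSJ and in SJ, and M25, a wild-type strain held by a university collection, in FSJ and in SJ. SJ is a synthetic grape juice with 200 g/l glucose at pH 3.3 and no lipid, and FSJ is SJ to which ergosterol (15 mg/l) and oleic acid (15 mg/l) were added. All cultures came from precultures in SJ of 24 h at 28°C, started at 1000000 cells/ml and were harvested at 60 h. Each strain background is represented by 1 strain, so a strain difference here is one between EC1118 and M25.

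Ubiquinone is a lipid of the inner mitochondrial membrane that carries electrons from several dehydrogenases to respiratory complex III. Its tail is built from isoprenoid units that come from the mevalonate pathway, the same pathway that feeds ergosterol synthesis. Its head begins as 4-hydroxybenzoate, which is joined to the tail and then modified in steps by a complex of Coq proteins on the matrix side of the inner membrane. In yeast, transcription of respiratory genes is generally held down by glucose and activated by the Hap2/3/4/5 complex.

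Signals are linear array intensities, and fold changes are log2 ratios with the standard error of the limma fit. A probe set was called when its adjusted p was under 0.05. Adjustment ran over the 7349 probe sets that exceeded the background on at least 3 arrays, where background is the signal below which 25% of the non-control probe sets of an array fall. All 12 COQ probe sets passed, each on 12 of 12 arrays, where the background was 16.6 to 21.7. The correlation of log2 signals between replicates was 0.919 to 0.986. EC1118 in FSJ replicate 2 stood apart: it took part in the lowest correlation, and its signal for the 5' probe set of the spiked control BioD was 118.4, while the remaining arrays had 190.1 to 299. The arrays of M25 in FSJ had median log2 signals of 6.90 to 6.92, against 7.07 to 7.17 on the others. A shift of every array to a common median moves the fitted lipid effect in M25 up by 0.19 and the EC1118 over M25 difference in FSJ by -0.24, and its consequences are given beside the counts. In cultures, less RNA in every cell and a smaller share of cells with the RNA cannot be told apart.

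COQ2 was the only COQ gene called between the media, and it fell with lipids. COQ2 encodes the transferase that joins the isoprenoid tail to 4-hydroxybenzoate, the step at which both branches of the pathway meet. In EC1118 its signals were 654, 533 and 686 in FSJ, against 900.4, 849 and 768 in SJ. In M25 they were 306, 327 and 246 in FSJ, against 591.5, 617 and 504 in SJ. Within each strain the 3 FSJ arrays lay below the 3 SJ arrays. Averaged over the strains the log2 fold change was -0.70 ± 0.10 (SE, 95% interval -0.93 to -0.47, limma adjusted p = 0.00158), a 1.62-fold lower signal in FSJ. COQ2 was thus 1 of 10 COQ genes called lower, where 5.06% of all probe sets tested were called lower. Without EC1118 in FSJ replicate 2 its averaged log2 fold change was -0.64 (limma adjusted p = 0.00353).

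In M25 the COQ2 log2 fold change was -0.97 ± 0.15 (SE, 95% interval -1.29 to -0.64, limma adjusted p = 0.00266). COQ2 was again the only one of 10 called lower, against 5.91% of all probe sets. In EC1118 the COQ2 log2 fold change was -0.43 ± 0.15 (SE, 95% interval -0.76 to -0.11), and it did not pass the test (limma adjusted p = 0.191). No COQ gene was called lower in EC1118, where 1.18% of all probe sets were. At an unadjusted limma p under 0.05, 2 members had lower fitted values in EC1118 (COQ1 and COQ2) and 4 in M25 (COQ2, COQ4, COQ6 and COQ8). The shares of all probe sets at this looser threshold were not counted, so the adjusted shares above are no baseline for it.

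The difference between the strains' lipid effects was tested as an interaction, the EC1118 effect minus the M25 effect. It called 0 of 10 COQ genes by limma, and 0.204% of all probe sets. At an unadjusted limma p under 0.05 it held COQ2 and COQ8, again without a count over all probe sets. The interaction was 0.54 ± 0.21 for COQ2 (SE, 95% interval 0.08 to 0.99, limma adjusted p = 0.271) and 0.55 ± 0.23 for COQ8 (SE, 95% interval 0.05 to 1.04, limma adjusted p = 0.294). A call for COQ2 in M25 and none in EC1118 is therefore no shown difference between the strains.

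**Figure D1:**
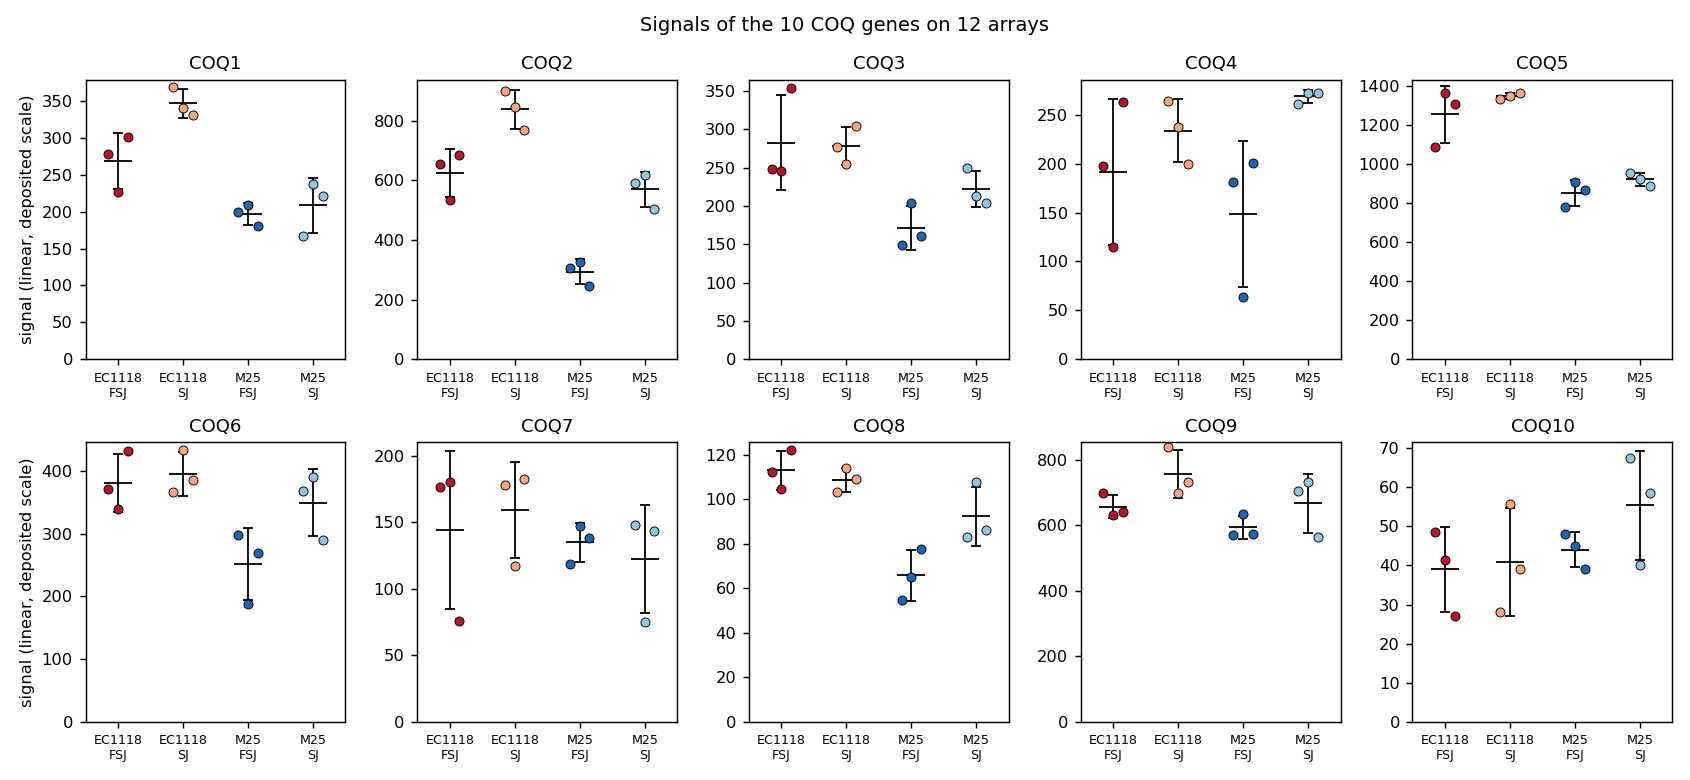
Signals of the 10 COQ genes on the 12 arrays (y axis, linear intensity from 0), with 1 panel per gene and the groups EC1118 in FSJ, EC1118 in SJ, M25 in FSJ and M25 in SJ along the x axis; points are arrays and bars are the mean ± SD (n = 3). COQ2 has its lowest points in M25 in FSJ, and the COQ4 panel has 1 low point in each FSJ group.

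COQ1 makes the other substrate of Coq2. It encodes the hexaprenyl diphosphate synthase, which elongates the isoprenoid tail. Its signals were 279, 227 and 302 in EC1118 in FSJ, against 369, 341 and 331 in EC1118 in SJ. In M25 they were 199, 209.9 and 181 in FSJ, against 166.5, 238 and 221 in SJ. The EC1118 arrays of the media did not overlap, and those of M25 did. The log2 fold change was -0.38 ± 0.16 in EC1118 (SE, limma adjusted p = 0.29), -0.07 ± 0.16 in M25 (SE, limma adjusted p = 0.83) and -0.22 ± 0.11 averaged (SE, limma adjusted p = 0.257).

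The ring of the joined molecule is then hydroxylated and methylated. COQ6, COQ3, COQ5 and COQ7 encode the enzymes for this, in that order: a flavin hydroxylase that takes electrons through Arh1 and Yah1, an O-methyltransferase, a C-methyltransferase and a late hydroxylase. None of them was called between the media. COQ6 had 371, 339.7 and 431 in EC1118 in FSJ, against 366, 433 and 386 in SJ, and 298, 187 and 269 in M25 in FSJ, against 368, 391 and 289.7 in SJ. Its M25 arrays overlapped by 1 value, the highest FSJ array lying just above the lowest SJ array. The COQ6 log2 fold change in M25 was -0.49 ± 0.19 (SE, 95% interval -0.90 to -0.08, limma adjusted p = 0.125). It was -0.29 without M25 in FSJ replicate 2 and -0.30 after median centring.

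COQ3 had 149, 204 and 160.2 in M25 in FSJ, against 249, 212.5 and 204.3 in M25 in SJ. These arrays did not overlap, the highest FSJ array (203.8) lying just below the lowest SJ array (204.3), and the log2 fold change was -0.38 ± 0.18 (SE, limma adjusted p = 0.198). In EC1118 COQ3 had 248, 245.5 and 354 in FSJ, against 277.5, 255 and 304.5 in SJ, and the arrays overlapped. COQ5 was close between the media, with means of 1253 ± 146 in FSJ and 1347 ± 15.2 in SJ for EC1118, and 851 ± 67.8 in FSJ and 919.8 ± 34.7 in SJ for M25 (SD, n = 3 each). Its averaged log2 fold change of -0.11 had a 95% interval of -0.28 to 0.05, so that a change of the size seen for COQ2 lies outside it. COQ7 was more variable, and its averaged 95% interval ran from -0.55 to 0.53. It held 1 low array in EC1118 in FSJ (75.9, against 177 and 181 on the others) and 1 in M25 in SJ (75.2, against 148 and 144).

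COQ4 encodes a protein known to organise the synthesis complex, which has also been described as an enzyme acting on the first carbon of the ring. Its signals were 198, 114.5 and 263 in EC1118 in FSJ, against 265, 238 and 199.7 in EC1118 in SJ. In M25 they were 182, 63.3 and 201 in FSJ, against 262, 273 and 273 in SJ. Replicate 2 was the lowest array of both FSJ groups, at 63.3 in M25 and 114.5 in EC1118. The M25 arrays did not overlap between the media, and those of EC1118 did. The COQ4 log2 fold change was -1.02 ± 0.39 in M25 (SE, 95% interval -1.88 to -0.17, limma adjusted p = 0.128), and without M25 in FSJ replicate 2 it was -0.49. Averaged over the strains it was -0.69 ± 0.28 (SE, limma adjusted p = 0.152). Without M25 in FSJ replicate 2 the averaged value was -0.43, without EC1118 in FSJ replicate 2 it was -0.53, and without both it was -0.26.

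Coq8 is an atypical kinase-like protein with ATPase activity that the complex depends on. COQ8 had 54.7, 65.3 and 77.5 in M25 in FSJ, against 83.1, 108 and 86.4 in M25 in SJ. All FSJ arrays of M25 were below all its SJ arrays, and the log2 fold change was -0.49 ± 0.16 (SE, 95% interval -0.84 to -0.14, limma adjusted p = 0.0782). Without M25 in FSJ replicate 3 it was -0.62, with a limma adjusted p of 0.0499. In EC1118 the COQ8 signals were 112, 105 and 122 in FSJ, against 103, 114 and 109 in SJ, and overlapped.

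Coq9 binds lipids and works with Coq7. The brightest of its 3 probe sets had 698, 632 and 641 in EC1118 in FSJ, against 839, 698 and 732 in SJ, and 572, 634.5 and 574.5 in M25 in FSJ, against 704.5, 733 and 563.5 in SJ. Its averaged log2 fold change was -0.18 ± 0.09 (SE, limma adjusted p = 0.247). The other COQ9 probe sets gave -0.36 (limma adjusted p = 0.152) and 0.23 (limma adjusted p = 0.674), so the 3 probe sets differed in sign and none was called. COQ10, whose product binds ubiquinone and is needed for its use in respiration rather than for its synthesis, was not called either. Its signals lay between 27.1 and 67.5 over the 12 arrays, and its averaged log2 fold change was -0.18 ± 0.21 (SE, limma adjusted p = 0.642).

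The fitted averaged effect was below 0 for 10 of 10 COQ genes, with a median log2 fold change of -0.21, against -0.01 over all probe sets tested. COQ7, at -0.01, turned to 0.05 under quantile normalization and under median centring, which left 9 of 10 below 0. In M25 9 of 10 fitted effects were below 0, with a median of -0.34 against -0.09 over all probe sets. Median centring left 6 of 10 below 0 in M25, with a median of -0.16 against 0.10 over all probe sets. In EC1118 8 of 10 were below 0, with a median of -0.16 against 0.06 over all probe sets. Median centring left 10 of 10 below 0 in EC1118, with a median of -0.22 against 0.004 over all probe sets. On the deposited scale, 3805 of all 7349 probe sets tested were below 0 in the averaged effect, 4399 in M25 and 2990 in EC1118. COQ2 remained called in the averaged effect and in M25 under both rescalings.

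**Figure D2:**
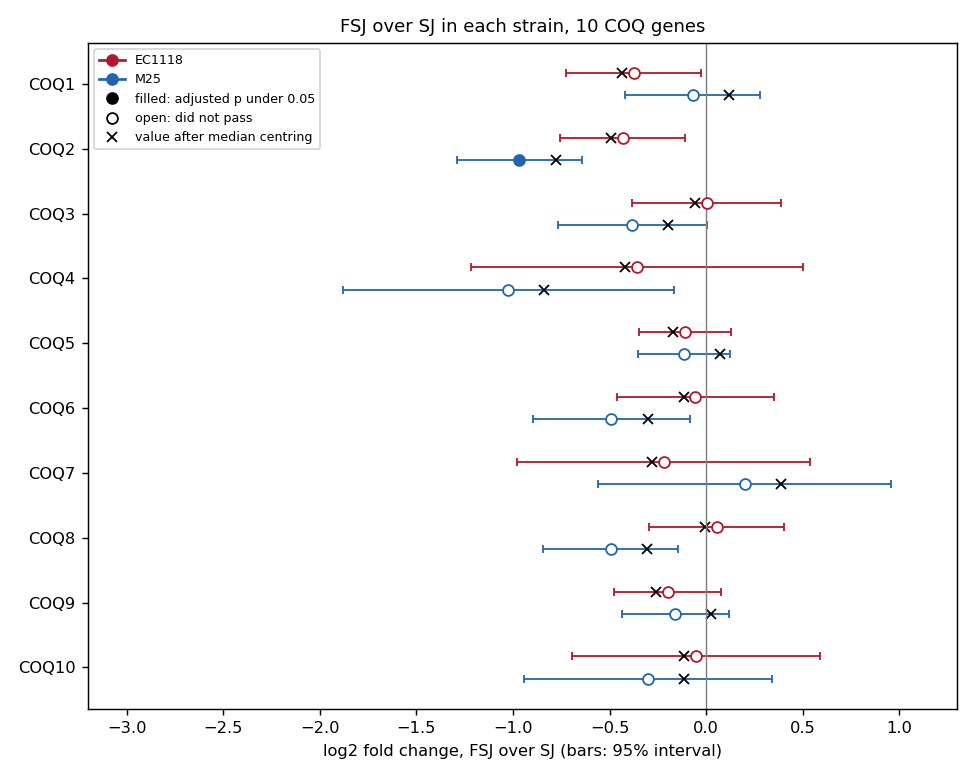
Log2 fold changes of FSJ over SJ (x axis) for the 10 COQ genes (rows), in EC1118 and in M25. Points are the limma estimates with 95% intervals, filled where the adjusted p is under 0.05. Black crosses are the values after median centring. COQ2 carries the only filled point, at -0.97 in M25.

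More COQ genes were called between the strains than between the media. In FSJ, COQ1, COQ2, COQ3, COQ5, COQ6 and COQ8 were called higher in EC1118 than in M25, 6 of 10, where 22.7% of all probe sets were called higher. For each of the 6, all EC1118 arrays lay above all M25 arrays. The calls came from these same arrays, so the separation adds no support of its own. The share of all probe sets so separated was not counted. COQ2 had the largest fitted difference, with a log2 fold change of 1.09 ± 0.15 (SE, 95% interval 0.77 to 1.42, limma adjusted p = 0.000181). It was followed by COQ8 at 0.79 ± 0.16 (SE, limma adjusted p = 0.00256), COQ3 at 0.72 ± 0.18 (SE, limma adjusted p = 0.00825) and COQ6 at 0.62 ± 0.19 (SE, limma adjusted p = 0.0228). COQ5 stood at 0.56 ± 0.11 (SE, limma adjusted p = 0.00206) and COQ1 at 0.44 ± 0.16 (SE, limma adjusted p = 0.0488). The interval of COQ2 overlapped those of COQ5 (0.32 to 0.79) and COQ1 (0.10 to 0.79) by little, while the intervals of the other 5 genes overlapped each other widely. The differences between the genes were not tested.

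COQ4, COQ7, COQ9 and COQ10 were not called between the strains in FSJ. COQ9 had the tightest bound, with a log2 fold change of 0.15 (95% interval -0.13 to 0.42, limma adjusted p = 0.399). COQ10 had a fitted value below 0, at -0.21 (limma adjusted p = 0.614). The count depends on the scaling of M25 in FSJ: after quantile normalization or median centring 4 of 10 were called, COQ2, COQ3, COQ5 and COQ8, while 15.8% of all probe sets were called higher under the first and 12.8% under the second. The COQ1 call was lost under 15 of 22 alternatives and the COQ6 call under 6 of 22. Without EC1118 in FSJ replicate 2, 6 of 10 were called, with COQ2 at 1.20 (limma adjusted p = 0.000179).

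In SJ, where the lipids were absent, COQ1, COQ2 and COQ5 were called higher in EC1118, 3 of 10, against 9.46% of all probe sets. COQ1 showed the widest difference, with means of 347 ± 19.7 in EC1118 and 209 ± 37.5 in M25 (SD, n = 3 each) and a log2 fold change of 0.75 ± 0.16 (SE, 95% interval 0.40 to 1.10, limma adjusted p = 0.00616). COQ2 had means of 839 ± 66.5 in EC1118 and 571 ± 59.1 in M25 (SD, n = 3 each), a log2 fold change of 0.56 ± 0.15 (SE, limma adjusted p = 0.0197). COQ5 had a log2 fold change of 0.55 ± 0.11 in SJ (SE, limma adjusted p = 0.00372), with all 3 EC1118 arrays between 1332 and 1362 and all 3 M25 arrays between 884 and 953. COQ1, COQ2 and COQ5 were thus called in both media. COQ5 kept both calls under every alternative run, while the COQ1 call in FSJ was lost under 15 of 22.

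COQ3, COQ6 and COQ8 were called in FSJ and not in SJ. Their log2 fold changes in SJ were 0.33 (limma adjusted p = 0.228), 0.18 (limma adjusted p = 0.563) and 0.24 (limma adjusted p = 0.338). The difference between the media in these strain effects is the interaction given above, which called none of them. The COQ2 call in SJ was lost without M25 in SJ replicate 3 (limma adjusted p = 0.0873), EC1118 in SJ replicate 1 (limma adjusted p = 0.0697) or EC1118 in SJ replicate 2 (limma adjusted p = 0.0575).

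**Figure D3:**
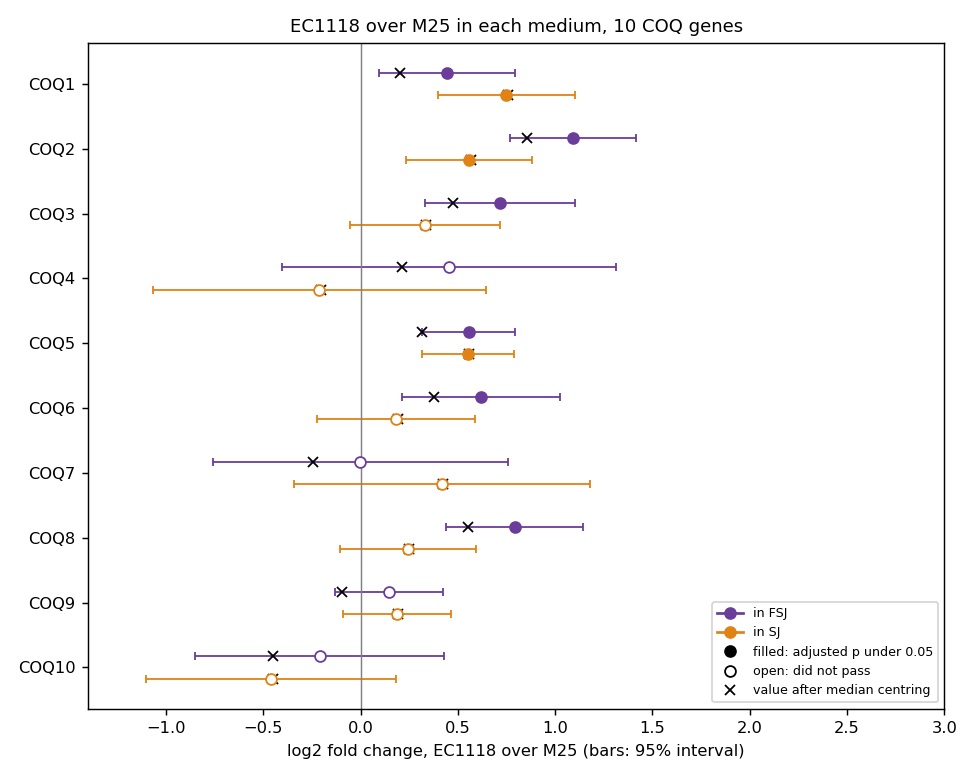
Log2 fold changes of EC1118 over M25 (x axis) for the 10 COQ genes (rows), in FSJ and in SJ; points are the limma estimates with 95% intervals, filled where the adjusted p is under 0.05, and black crosses are the values after median centring. There are 6 filled points in FSJ and 3 in SJ, and in FSJ the crosses lie to the left of the points by the shift of -0.24.

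The 4 groups took an order on the deposited scale, where the arrays of M25 in FSJ had the lowest medians. Neither this order nor the correlations that follow were worked out after rescaling. As a mean of the standardized log2 signals of the 10 genes, the arrays of EC1118 in SJ stood at 0.72, 0.70 and 0.68, those of EC1118 in FSJ at 0.41, 0.07 and 0.29, those of M25 in SJ at 0.15, -0.02 and -0.22, and those of M25 in FSJ at -0.96, -0.96 and -0.87. EC1118 in FSJ and M25 in SJ overlapped. The other neighbours in this order did not.

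Not every gene followed that order. Over the 12 arrays the correlation of each gene with the mean of the other 9 was 0.96 for COQ2, 0.81 for COQ8, 0.78 for COQ3, 0.77 for COQ5, 0.76 for COQ6, 0.70 for COQ1 and 0.68 for COQ9. It was 0.37 for COQ4, -0.02 for COQ7 and -0.33 for COQ10. Of the 45 pairs of genes, 33 correlated positively, with a median of 0.48 and a range of -0.51 (COQ1 and COQ10) to 0.85 (COQ3 and COQ5). These points share arrays and the 4 groups. Taken as deviations from the group means, 19 of 45 pairs were positive and the median was -0.05.

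Among 5262 other genes, the 6 whose log2 signal correlated best with that mean over the 12 arrays were PRX1 (0.98), COX10 (0.98), PKH1 (0.97), MRPL35 (0.97), NAS2 (0.96) and SDH7 (0.96). PRX1 encodes the mitochondrial peroxiredoxin, and COX10 the farnesyltransferase that makes haem O for cytochrome oxidase. COX10 had 486.5, 358 and 459.5 in EC1118 in FSJ, against 544, 485 and 528 in EC1118 in SJ. In M25 it had 142, 112 and 113 in FSJ, against 305, 279.5 and 249.6 in SJ. The 4 groups of COX10 stood apart with no overlap except that 1 EC1118 value in FSJ (486.5) exceeded 1 in SJ (485). COX10 fell by 0.73 on the log2 scale in the averaged effect (limma adjusted p = 0.00154), and was higher in EC1118 than in M25 by 1.83 in FSJ (limma adjusted p = 5.95e-06) and 0.90 in SJ (limma adjusted p = 0.00143). Genes chosen for their likeness to the COQ mean share its pattern by choice.

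The isoprenoid precursors that Coq1 and Coq2 draw on come from the mevalonate pathway. Of 9 genes from acetyl-CoA to farnesyl diphosphate, 6 were called lower in FSJ in the averaged effect and 0 higher, against 5.06% lower and 4.03% higher over all probe sets. The list median was -0.56, against -0.01 over all probe sets. HMG1, which encodes an HMG-CoA reductase, fell by 1.79 on the log2 scale (limma adjusted p = 1.35e-05), ERG8 by 0.97 (limma adjusted p = 1.46e-05), MVD1 by 0.63 (limma adjusted p = 0.00209) and ERG12 by 0.56 (limma adjusted p = 0.000651). In EC1118 the HMG1 means were 432 in FSJ and 1862 in SJ, and in M25 they were 411 and 1166. HMG2, which also encodes an HMG-CoA reductase, was brighter in every group and close between the media. Its means were 2134 in FSJ and 2339 in SJ for EC1118, and 2420 and 2611 for M25. ERG8, ERG12 and MVD1 encode the kinases and the decarboxylase that turn mevalonate into isopentenyl diphosphate. ERG20, the farnesyl diphosphate synthase whose product Coq1 elongates, had -0.27 (limma adjusted p = 0.0994) between the media. Of the 9 genes, 3 were called higher in EC1118 in FSJ and 2 in SJ, against 22.7% and 9.46% of all probe sets. Between the strains ERG20 was higher in EC1118, by 0.62 in FSJ (limma adjusted p = 0.00343) and 0.53 in SJ (limma adjusted p = 0.0139), where the call was lost without replicate 2 of M25 (limma adjusted p = 0.0597) or of EC1118 (limma adjusted p = 0.0603).

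MVD1, known also as ERG19, is the next gene upstream of COQ2 and is transcribed away from it, so the pair shares the region between their starts. Its signals were 1730.4, 1719 and 1776 in EC1118 in FSJ, against 2520, 2555 and 2414 in EC1118 in SJ. In M25 they were 1281, 1256 and 876.5 in FSJ, against 2015, 1997 and 1646 in SJ. In each strain the FSJ arrays lay below the SJ arrays, as for COQ2. The MVD1 log2 fold change was -0.52 in EC1118, which did not pass the test (limma adjusted p = 0.0931), and -0.74 in M25 (limma adjusted p = 0.00764). In FSJ MVD1 was higher in EC1118 than in M25 by 0.64 (limma adjusted p = 0.0041), and in SJ the difference of 0.41 did not pass (limma adjusted p = 0.0584). Without M25 in FSJ replicate 3 both of these uncalled values passed, with limma adjusted p = 0.0186 between the media in EC1118 and 0.0123 between the strains in SJ.

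**Figure D4:**
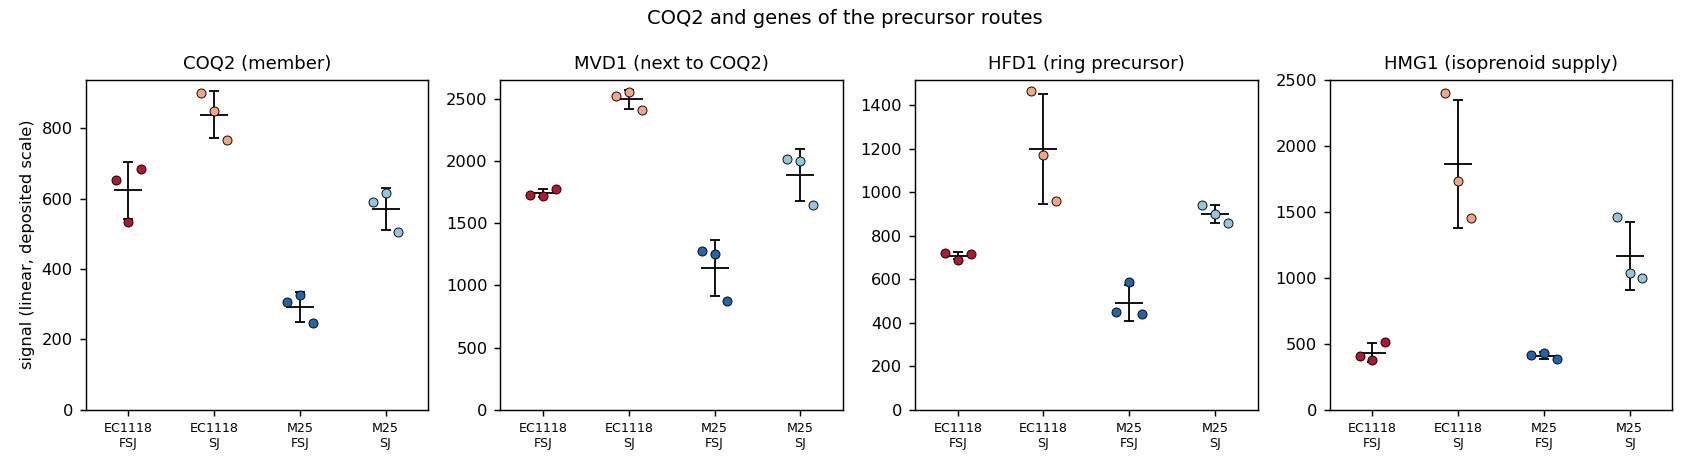
Signals (y axis, linear intensity from 0) of COQ2, its divergent neighbour MVD1, HFD1 and HMG1 on the 12 arrays, by group along the x axis (EC1118 in FSJ, EC1118 in SJ, M25 in FSJ, M25 in SJ); points are arrays and bars are the mean ± SD (n = 3). For each of the 4 genes the FSJ arrays of a strain lie below its SJ arrays.

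A list of 15 ubiquinone-associated genes, which serve the head group, the electron supply of Coq6 or the handling of ubiquinone, held 2 called lower and 1 called higher with lipids in the averaged effect, against 5.06% lower and 4.03% higher over all probe sets. The list median was -0.26. HFD1 encodes the aldehyde dehydrogenase that makes 4-hydroxybenzoate, the head group that Coq2 uses. Its signals were 720.1, 688 and 718 in EC1118 in FSJ, against 1464, 1173 and 957 in EC1118 in SJ, and 449, 586 and 441 in M25 in FSJ, against 940.1, 898 and 856 in M25 in SJ. The arrays of the media did not overlap in either strain, and HFD1 fell by 0.81 on the log2 scale (SE 0.11, limma adjusted p = 0.000825). It was called in M25 at -0.88 (limma adjusted p = 0.00605) and in EC1118 at -0.74 (limma adjusted p = 0.0351), and the EC1118 call was lost under 12 of 22 alternatives.

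ABZ1, needed to make para-aminobenzoate, another ring precursor of yeast ubiquinone, had -0.49 (limma adjusted p = 0.0299), a call lost under 8 of 21 alternatives. ARO8, an aromatic aminotransferase that acts on tyrosine, was higher in FSJ by 0.40 (limma adjusted p = 0.0179), and its adjusted p was 0.0797 without replicate 2 of both FSJ groups. ARO10, a decarboxylase of aromatic keto acids, had 36.1, 35.3 and 29 in EC1118 in FSJ and 40.1, 37 and 33.4 in EC1118 in SJ. In M25 it had 200.4, 137 and 107 in FSJ and 280.3, 165 and 202 in SJ. All its EC1118 arrays lay below all its M25 arrays.

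Between the strains, 3 of the 15 associated genes were called lower and 4 higher in EC1118 in FSJ, where 12.4% of all probe sets were called lower and 22.7% higher. In SJ 2 were called lower and 3 higher, against 10.3% and 9.46% of all probe sets. ARO10 had log2 fold changes of -2.10 in FSJ (limma adjusted p = 5.65e-05) and -2.52 in SJ (limma adjusted p = 2.06e-05). ARO9, another aromatic aminotransferase, had -1.47 in FSJ (limma adjusted p = 0.033, a call lost under 6 of 22 alternatives) and -2.55 in SJ (limma adjusted p = 0.00281). The EC1118 signals of ARO10 (29 to 40.1) and ARO9 (26 to 47.5) lay near the background of 16.6 to 21.7. The sizes of their fold changes between the strains are therefore uncertain. ARO8 was lower in EC1118 in FSJ, at -0.54 (limma adjusted p = 0.00718). YAH1, the ferredoxin that passes electrons to Coq6, was higher in EC1118 by 0.46 in FSJ (limma adjusted p = 0.012) and 0.64 in SJ (limma adjusted p = 0.00293). CQD2, a mitochondrial relative of Coq8 that affects how ubiquinone spreads in the cell, was higher in EC1118 in FSJ by 1.25 (limma adjusted p = 0.00049).

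Of 10 genes for enzymes that reduce ubiquinone, 2 were called lower in FSJ in the averaged effect, against 5.06% of all probe sets. These were NDE1, an external NADH dehydrogenase (-0.69, limma adjusted p = 0.0048), and GUT2, the mitochondrial glycerol-3-phosphate dehydrogenase (-1.43, limma adjusted p = 0.00791). GUT2 had 1 high array in EC1118 in SJ (316.5, against 98.8 and 86.5), and low signals of 30.7 to 58.5 in FSJ. Its averaged call held under all 21 alternatives, at -1.60 to -1.13. Within M25 0 of the 10 were called lower and within EC1118 2, against 5.91% and 1.18% of all probe sets. Between the strains, 2 of the 10 were called higher in EC1118 in FSJ and 1 in SJ, against 22.7% and 9.46% of all probe sets. The list median in FSJ was -0.07, with 5 of 10 below 0. SDH1, the flavoprotein of succinate dehydrogenase, was higher in EC1118 by 1.01 in FSJ (limma adjusted p = 0.000362) and 0.72 in SJ (limma adjusted p = 0.00556). The mean signals of SDH2 and SDH4 were also higher in EC1118 in both media, and that of SDH3 was lower in both. Of 10 genes of complex III, which oxidises ubiquinol, 4 were called lower in FSJ in the averaged effect and 0 higher, with a median of -0.39, against 5.06% called lower and a median of -0.01 over all probe sets. They were CYT1, cytochrome c1 (-1.03, limma adjusted p = 0.000824), QCR2, a core subunit (-0.83, limma adjusted p = 0.00164), RIP1, the Rieske iron-sulfur protein (-0.52, limma adjusted p = 0.0118), and QCR8 (-0.38, limma adjusted p = 0.00991).

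Of 12 regulators described for COQ or respiratory genes, 2 were called lower and 1 higher in FSJ in the averaged effect, against 5.06% lower and 4.03% higher over all probe sets. The list median was -0.02. HAP4, the activating subunit of the Hap complex, fell by 0.88 on the log2 scale (limma adjusted p = 0.00404). It had 158, 216 and 267 in EC1118 in FSJ, against 466, 295 and 289 in SJ, and 188, 164 and 176 in M25 in FSJ, against 392, 372 and 334 in SJ. ROX1, the repressor of hypoxic genes, fell by 1.67 (limma adjusted p = 0.000993). RTG3 had 0.39 (limma adjusted p = 0.0499), a call lost under 15 of 21 alternatives. Between the strains in FSJ, 3 of the 12 were called higher in EC1118 and 1 lower, against 22.7% and 12.4% of all probe sets. In SJ 0 were called higher and 1 lower, against 9.46% and 10.3%. HAP5 was higher in EC1118 in FSJ by 1.13 (limma adjusted p = 0.00844), and MIG1, the glucose repressor, was lower in EC1118 in SJ, at -0.65 (limma adjusted p = 0.0191, a call lost under 4 of 22 alternatives). No gene of these 5 sets (associated, isoprenoid, reducing, complex III and regulators) was called in the interaction.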

How the data were processed

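Each array has 1 linear intensity per probe set, deposited by the authors; per the submitters' processing notes the tool was MAS5. The tool's version is not given in the sources used here, and neither is its target signal. The deposited scale was kept. Trimming 2% at each end left array means of 297.8 to 299.9. Arrays already scaled to a common trimmed mean would show this in any case, so it is no check of the scale. The number of arrays limits the precision. Replicates are separate biological samples per the labels.

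The 60 controls among 9335 probe sets were dropped. A single gene symbol was annotated for 6504 of the 9275 remaining, several for 328 and none for 2443. Signals under 1 were set to 1 before log2. The 4 group means were estimated from the 12 arrays together in limma 3.58.1 under R 4.3.3 (lmFit, eBayes with an intensity trend), with Benjamini-Hochberg adjustment over the 7349 probe sets kept. Every adjusted p comes from limma. The comparisons between the strains share arrays with those between the media. Where a gene had several probe sets, the one with the highest mean log2 signal stood for it. The fits were tested on simulated data.

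The COQ genes and the gene lists were chosen with earlier results of these data known. URA1 was left out of the list of ubiquinone-reducing enzymes, because its S. cerevisiae enzyme passes electrons to fumarate. Named genes were all COQ genes, up to 4 called genes per list by smallest p in the averaged effect, up to 3 in each other contrast, and the 6 genes most like the COQ mean. COX10's levels are given as an example of these. Upstream neighbours came from RefSeq's gene table of assembly R64 and were looked at after values were known. The strains' own sequences at the probes were not analysed here.

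Alternatives were quantile normalization, median centring, a pseudocount of 16, a floor at the background, no filter, a filter that needs every array above background, a replicate block, eBayes without the intensity trend, a fit of the compared groups alone, and leave-one-out over the arrays. Leaving out replicate 2 of both FSJ groups was chosen after seeing the data.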

Additional observations from a re-analysis of the deposited data

How the results depend on the processing

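The count of COQ genes called was 1 under all 21 alternatives for the averaged lipid effect, and 0 under all those run for the lipid effect in EC1118 and for the interaction. In M25 it was 1, and 1 to 2 when 1 array was left out. It was 4 to 6 between the strains in FSJ and 2 to 3 in SJ. Of 32 COQ fold changes, 24 kept their sign and side of the threshold under every alternative run, and so did 33 of 42 of other genes. COQ2 kept its call in the averaged effect (log2 fold change -0.74 to -0.64) and in M25 (-1.05 to -0.78), and COQ2, COQ3, COQ5 and COQ8 kept theirs between the strains in FSJ.

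Values that changed sign belong to uncalled results near 0. COQ7 in the averaged effect was 0.0532 under quantile normalization and 0.0539 under median centring, and -0.17 to 0.20 with 1 array left out. COQ1 in M25 was 0.0936 under quantile normalization and 0.116 under median centring, and -0.23 to 0.0327 with 1 array left out. COQ9 between the strains in FSJ was -0.0944 under median centring, and COQ10 there ran from -0.39 to 0.032 with 1 array left out. The causes were not tested. The replicate numbers were not taken to pair the samples, since 2 of 18 same-numbered pairs correlated above 0.1 and 3 of 12 samples correlated best with their own number. With the replicate block, COQ1 between the strains in FSJ was no longer called (limma adjusted p = 0.0767), which left 5 of 10, and the other 5 counts were those of the fit without it.

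Among calls over all probe sets, the share that was higher moved with the scaling. From the deposited scale to quantile normalization to median centring it was 44.3%, 49.6% and 62.9% for the averaged effect, 32.5%, 43.3% and 72.5% in M25, 36%, 35.1% and 25.4% in EC1118, 73.3%, 50% and 15% for the interaction, 64.6%, 50.5% and 37.1% between the strains in FSJ, and 47.8%, 48% and 48.7% in SJ. The number of arrays, 3 per group, limits what COQ4, COQ7 and COQ10 can show.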

Other observations

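Of the genes directly upstream of the 10 COQ genes, 7 are transcribed away from their COQ neighbour and 3 (HMI1, IAH1 and MSS51) run in the same direction. Of the 10, MVD1 and MSS51 were called lower in FSJ in the averaged effect, where 5.06% of all probe sets were. MSS51, a translational activator of mitochondrial COX1 that lies upstream of COQ9, fell by 0.43 on the log2 scale (limma adjusted p = 0.0102), while COQ9 was at -0.18 (limma adjusted p = 0.247). MSS51 had 1007, 826 and 939.7 in EC1118 in FSJ, against 341, 379 and 355 in M25 in FSJ, a log2 fold change of 1.36 (limma adjusted p = 9.06e-06), whereas COQ9 had 0.15. These neighbours were looked at after their values were known, and the genes of a pair were not tested against each other.

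GND2, a phosphogluconate dehydrogenase gene that diverges from COQ6, differed widely between the strains. It had 521, 455 and 829.7 in EC1118 in FSJ, against 89.4, 88 and 81.9 in M25 in FSJ, and 532, 522 and 621 in EC1118 in SJ, against 128, 141.5 and 130 in M25 in SJ. The log2 fold change of GND2 was 2.75 in FSJ (limma adjusted p = 1.33e-06) and 2.06 in SJ (limma adjusted p = 1.61e-05), where COQ6 had 0.62 in FSJ and 0.18 in SJ.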
